A study of Mus musculus with 12 samples.

Results

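The genes described here are 8 that mast cells use to sense IgE, stem cell factor and interleukin-33 and to keep their identity. They are Fcer1a, Ms4a2 and Fcer1g (the chains of the high-affinity IgE receptor), Kit and Il1rl1 (receptors), Gata2 and Mitf (transcription factors) and Hdc (an enzyme). Each gene was represented by the array probe group (transcript cluster) annotated to its symbol alone, and by the brightest one where there were several. This gave 7 of the 8 genes, each with 1 cluster, among 30142 genes with such a cluster in all. No cluster carried the symbol Il1rl1 in the annotation used, so Il1rl1 was not analysed here.

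Signals came from 12 Affymetrix arrays of mouse C57BL/6 HoxB8-ER cells, in 6 groups of 2. These are bone marrow cells made to divide without limit by a HOXB8-estrogen receptor fusion, carried by every group, and held at a promyelocyte-like stage by 0.5 µM estradiol; 6 days without it yields neutrophils. Within 8 arrays, wild-type and Ezh2-/- (Ezh2-null) cells from littermates were compared as undifferentiated cells and as neutrophils. Within the other 4, wild-type neutrophils treated with GSK343, which blocks the enzyme EZH2, were compared with vehicle. The dose of GSK343 is uncertain, since it is 0.5 µM over 9 days in the sample labels and 1 µM in the design text. Neither the number of lines derived nor the origin of the replicates is stated. Genotype and cell line therefore cannot be told apart, and the spread behind each p-value is that of these arrays and may be technical.

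The IgE receptor of mast cells and basophils is built from an alpha chain that binds IgE (Fcer1a), a beta chain that amplifies the signal (Ms4a2) and a dimer of gamma chains that carries the signalling motifs (Fcer1g). The gamma chain also serves other activating receptors of neutrophils, monocytes and platelets, so Fcer1g is not restricted to mast cells. Kit binds stem cell factor and is carried by haematopoietic progenitors and mast cells, and neutrophils normally lose it as they mature. GATA2 and MITF are transcription factors that mast cells need, and histidine decarboxylase (Hdc) makes the histamine that mast cells and basophils store. EZH2 is the catalytic subunit of Polycomb repressive complex 2, which methylates histone H3 at silenced genes.

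Values are deposited log2 signals. A value at or under the 95th percentile of the 23 antigenomic control probe sets of its own array (4.83 to 5.79) is called at background. Array medians were 4.54 to 4.65 on the 8 genotype arrays and 3.88 to 3.96 on the 4 drug arrays, so levels were compared only within each set. Ezh2 signal was 11.57 and 11.65 on the wild-type and 9.10 and 9.44 on the Ezh2-null undifferentiated arrays, a fall that passed the test (log2 difference −2.34, SE 0.155, adjusted p = 5.5e-05). In neutrophils it was 8.31 and 8.34 on the wild-type and 8.74 and 9.02 on the Ezh2-null arrays. The transcript was not lower there, so these cells are called neutrophils labelled Ezh2-null. Ezh2 fell 9.75-fold as wild-type cells differentiated (limma adjusted p = 1.23e-06) and 1.31-fold, not called, in Ezh2-null cells (adjusted p = 0.113). With wild-type neutrophils this low, the transcript cannot check the label in neutrophils. Signal also stayed above background on the Ezh2-null undifferentiated arrays. All 14 neutrophil markers examined, such as Ltf, Camp and Ly6g, were above background on every neutrophil array. Across clusters, GSK343 array 2 was nearer to a vehicle array (Pearson r = 0.9947) than to its replicate (0.9935).

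RefSeq promoter windows (GRCm38.p6) were found for all 8 genes, 13 transcription starts in all, each running from 250 bases before to 50 bases after a start. They were searched on both strands for GATA words (the letters GATA with A or T before them and A or G after) and for MITF words (TCANGTG, where N is C or T), and no words overlapped. At least 1 GATA word stood in 29.8% of all 32851 promoters of this length, and 2 or more in 7.8%, while 7.4% held an MITF word. A match describes the letters only and is not evidence of binding. The windows of the 3 IgE receptor chains and of Kit are shown because these transcripts moved differently in the arrays, with matched words in capitals.
Fcer1a: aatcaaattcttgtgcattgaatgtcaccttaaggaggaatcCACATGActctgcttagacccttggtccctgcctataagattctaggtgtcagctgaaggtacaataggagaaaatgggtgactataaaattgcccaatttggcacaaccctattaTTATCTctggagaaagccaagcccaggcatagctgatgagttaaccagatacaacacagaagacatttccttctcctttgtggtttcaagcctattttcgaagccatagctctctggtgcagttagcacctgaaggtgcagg
Ms4a2: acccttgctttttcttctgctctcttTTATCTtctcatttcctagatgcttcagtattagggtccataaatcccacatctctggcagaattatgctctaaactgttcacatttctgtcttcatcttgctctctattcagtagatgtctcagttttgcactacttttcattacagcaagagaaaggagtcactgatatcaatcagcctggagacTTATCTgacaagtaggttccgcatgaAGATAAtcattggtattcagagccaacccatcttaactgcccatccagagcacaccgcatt
Fcer1g: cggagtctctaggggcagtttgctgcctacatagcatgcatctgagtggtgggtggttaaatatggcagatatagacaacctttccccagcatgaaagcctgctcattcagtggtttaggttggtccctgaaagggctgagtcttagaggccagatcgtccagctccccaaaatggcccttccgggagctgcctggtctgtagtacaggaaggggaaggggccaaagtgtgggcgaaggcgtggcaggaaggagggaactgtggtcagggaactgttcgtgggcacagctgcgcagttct
Kit: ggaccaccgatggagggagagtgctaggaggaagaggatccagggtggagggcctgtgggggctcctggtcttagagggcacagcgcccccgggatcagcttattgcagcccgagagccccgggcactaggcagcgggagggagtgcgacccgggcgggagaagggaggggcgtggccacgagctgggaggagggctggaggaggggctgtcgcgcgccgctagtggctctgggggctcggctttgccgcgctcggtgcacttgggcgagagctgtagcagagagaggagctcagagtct
The Fcer1a window lies at chr1:173227180-173227479 on the minus strand. It held 1 GATA word, at bases −92 to −87 from the start, and 1 MITF word at −208 to −202, both read on the opposite strand of the gene. The Ms4a2 window lies at chr19:11623670-11623969 on the minus strand and held 3 GATA words, at −224 to −219, −37 to −32 and −11 to −6. The Fcer1g window (chr1:171234300-171234599, minus strand) and the first Kit window (chr5:75574737-75575036, plus strand) held none of these words. Over the other windows, Hdc held 1 GATA word, the starts of Il1rl1 held 5 and 1, those of Mitf held 0, 1 and 2, and the second Kit start and both Gata2 starts held none. In total 5 of the 8 genes had at least 1 GATA word, and 7 of the 13 starts, against the 29.8% of all promoters.

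In neutrophils, 5 of the 7 measured genes were higher where the label was Ezh2-null: Fcer1a, Ms4a2, Kit, Gata2 and Hdc. Fcer1g and Mitf did not pass the test. Over all 65956 clusters, 6.75% were called higher and 5.06% lower in this comparison (limma over all 12 arrays, adjusted p under 0.05), and of the 30142 named genes 10.2% were higher and 6.41% lower. The median log2 difference of the 7 was 2.29 with genes at background in the dimmer group set at their bound, against −0.01 as fitted over all named genes. As fitted it was 3.88, which is the value of Fcer1a, and with the negative control limit described under Fcer1a it was 1.93. In these bulk arrays, more cells of a type and more RNA per cell cannot be told apart.

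In undifferentiated cells, 2 of the 7 were called by genotype, Gata2 higher and Fcer1g lower, where 1.65% of clusters were higher and 1.34% lower (2.71% and 1.75% of named genes). As wild-type cells became neutrophils, 3 of the 7 fell (Kit, Gata2 and Ms4a2) and 2 rose (Fcer1g and Mitf), beside 12.2% of clusters lower and 13% higher (19.4% and 12.1% of named genes). As Ezh2-null cells did so, all 7 changed: Kit and Gata2 fell, and Fcer1a, Ms4a2, Fcer1g, Mitf and Hdc rose, beside 10.7% lower and 11.7% higher (17.9% and 9.75% of named genes). GSK343 called none of the 7 (limma), and 0 of them had an unadjusted p under 0.05. It called 1 cluster in all, 0.00152%, with 6.01% of clusters at an unadjusted p under 0.05.

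**Figure D1:**
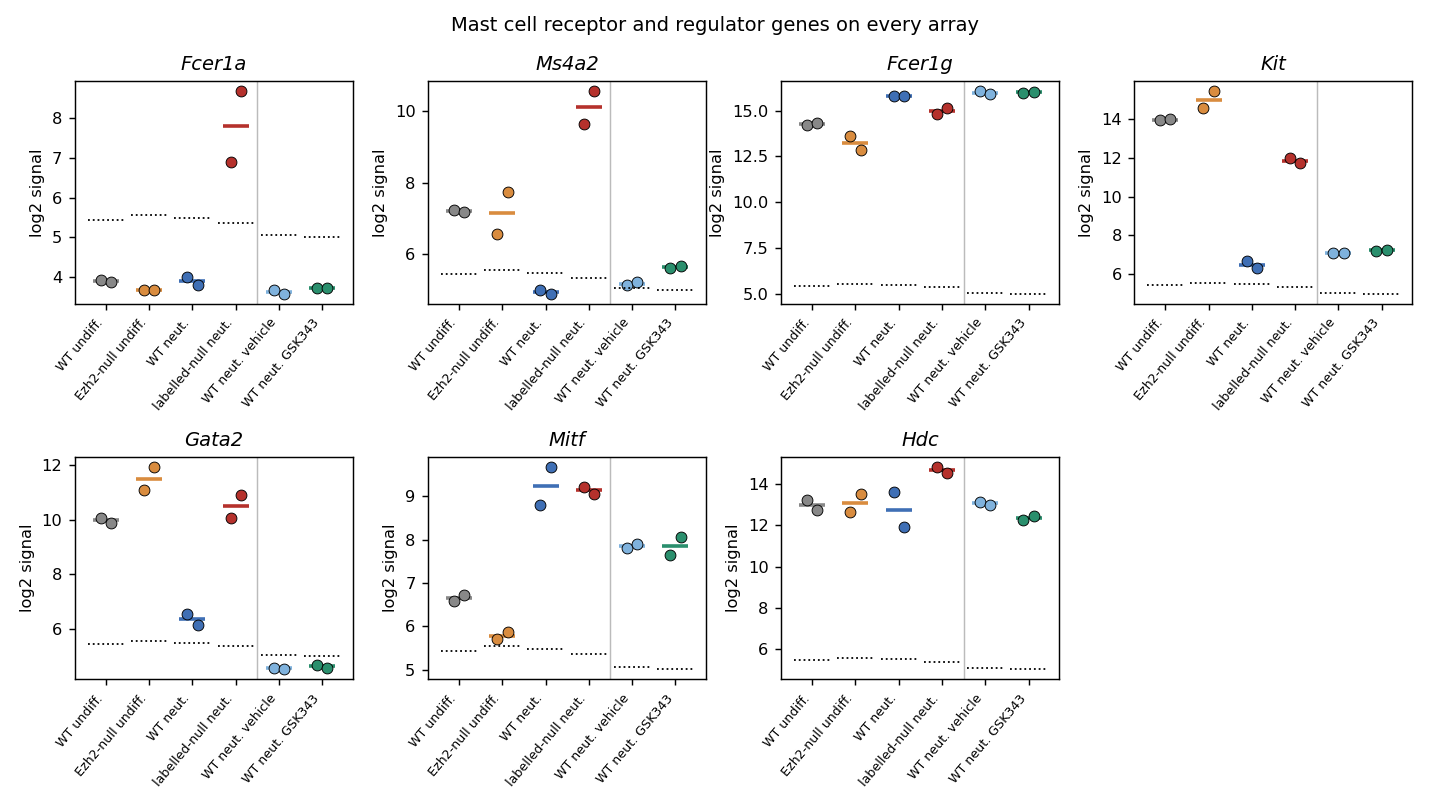
Log2 signal of the 7 measured genes on each of the 12 arrays, in 6 groups of 2; points are arrays, horizontal bars are group means and dotted lines are the mean array background of each group. The vertical line separates genotype from drug arrays. Fcer1a rises above background on the arrays of neutrophils labelled Ezh2-null alone, at 6.90 and 8.67.

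The alpha chain Fcer1a, which holds the IgE, was detected in one group. Its log2 signals were 3.93 and 3.88 on wild-type undifferentiated, 3.67 and 3.68 on Ezh2-null undifferentiated, 4.01 and 3.81 on wild-type neutrophil and 6.90 and 8.67 on neutrophil arrays labelled Ezh2-null. It was at background on the first 6 of these arrays and on all 4 drug arrays (3.59 to 3.72), and the second array of the group that carried it read well above the first. The bound on the genotype difference in neutrophils was at least 4.91-fold (fitted log2 difference 3.88, SE 0.43, adjusted p = 0.000494). On differentiation of Ezh2-null cells it rose at least 4.68-fold (adjusted p = 0.000154). The fit pools the spread of Fcer1a over 6 groups. Its SD was 1.25 in the group with signal and 0.0006 to 0.14 in the others, which were at background. The SE and p-values of Fcer1a therefore understate its spread where it was detected. When the 5222 negative control probe sets (their median) set the background limit instead, the bound on the genotype difference was 2.46-fold and that on the rise 4.23-fold.

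The beta chain Ms4a2 was present in progenitors and was lost or gained on differentiation by genotype. Undifferentiated arrays read 7.24 and 7.18 in wild type and 6.56 and 7.75 in Ezh2-null cells, and these groups overlapped. Wild-type neutrophils read 5.00 and 4.91, at background, and neutrophils labelled Ezh2-null 9.64 and 10.55, above every other array. Ms4a2 therefore fell at least 3.30-fold as wild-type cells differentiated (adjusted p = 0.00138) and rose 7.69-fold as Ezh2-null cells did (log2 difference 2.94, SE 0.37, adjusted p = 0.000428). The genotype difference in neutrophils was at least 24.3-fold (log2 difference 5.14, SE 0.37, adjusted p = 4.31e-05). With the negative control limit, that bound was 12.2-fold and the one on its fall 1.66-fold.

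The gamma chain Fcer1g, which other receptors share, was high in every group and followed neutrophil differentiation. It read 14.20 and 14.32 in wild-type and 13.61 and 12.83 in Ezh2-null undifferentiated cells, then 15.82 and 15.79 in wild-type neutrophils and 14.81 and 15.17 in those labelled Ezh2-null. The arrays of the Ezh2-null label were lower at both stages, without overlap. Fcer1g rose 2.92-fold in wild-type (adjusted p = 0.000812) and 3.41-fold in Ezh2-null cells (adjusted p = 0.000545). The genotype difference was −1.04 in undifferentiated cells (SE 0.23, adjusted p = 0.0477) and −0.81 in neutrophils (SE 0.23, adjusted p = 0.0515). The latter passed the test after quantile normalization within each array set (−1.40, adjusted p = 0.00458), after median centring (adjusted p = 0.0499) and with dim clusters left out (adjusted p = 0.0335). The former is 1 of 2 calls in undifferentiated cells that other settings lost, as given under Gata2.

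Kit, the stem cell factor receptor, had the widest range of the 7 genes over the genotype arrays, 9.10 log2 units. Undifferentiated arrays read 13.92 and 13.98 in wild type and 14.55 and 15.42 in Ezh2-null cells. Wild-type neutrophils read 6.68 and 6.32, and neutrophils labelled Ezh2-null 11.99 and 11.71. The latter stood between the progenitors and the wild-type neutrophils, with no overlap on either side. Kit fell 174-fold as wild-type cells differentiated (log2 difference −7.45, SE 0.25, adjusted p = 2.58e-07) and 8.81-fold in Ezh2-null cells (−3.14, SE 0.25, adjusted p = 3.31e-05). Wild-type neutrophil array 2 read under its negative control median (6.60) and array 1 just above its own (6.37). Folds against that group therefore rest on values near the floor. The genotype difference in neutrophils was 40.7-fold (log2 difference 5.35, SE 0.25, adjusted p = 3.82e-06). In undifferentiated cells it was 1.04 and did not pass (adjusted p = 0.0725), but passed without Ezh2-null undifferentiated array 1 (1.48, adjusted p = 0.00307). Without Ezh2-null undifferentiated array 2 it was 0.60 (adjusted p = 0.131).

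Gata2, the factor that mast cells and stem cells share, was highest in Ezh2-null progenitors. Its signals were 10.05 and 9.89 in wild-type and 11.07 and 11.93 in Ezh2-null undifferentiated cells. They were 6.54 and 6.15 in wild-type neutrophils and 10.06 and 10.91 in neutrophils labelled Ezh2-null. The latter lay above both wild-type progenitor arrays, by a difference that did not pass the test (0.52, SE 0.32, adjusted p = 0.332). Gata2 was 17.7-fold higher with the Ezh2-null label in neutrophils (log2 difference 4.15, SE 0.32, adjusted p = 6.34e-05) and 2.89-fold higher in undifferentiated cells (1.53, SE 0.32, adjusted p = 0.0356). It fell 12.3-fold as wild-type cells differentiated (adjusted p = 3.32e-05) and 2.01-fold in Ezh2-null cells (adjusted p = 0.0494). As with Kit, wild-type neutrophil array 2 read under its negative control median (6.60) and array 1 just above its own (6.37). The Gata2 and Fcer1g calls in undifferentiated cells were both lost with the genotype arrays alone in the fit (adjusted p = 0.140 and 0.161) and without either wild-type undifferentiated array or Ezh2-null undifferentiated array 2. The fall of Gata2 in Ezh2-null cells was lost in 6 of 11 alternatives, among them leaving out Ezh2-null undifferentiated array 2 or array 1 of the neutrophils labelled Ezh2-null.

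Mitf, the other transcription factor, rose on differentiation in both genotypes and overlapped between them in neutrophils. It read 6.59 and 6.73 in wild-type and 5.70 and 5.87 in Ezh2-null undifferentiated cells. The first of the latter was at background and the second under its negative control median (6.02). Folds against the Ezh2-null undifferentiated group therefore rest on values near the floor. Wild-type neutrophils read 8.79 and 9.68, a range that encloses the 9.21 and 9.06 of neutrophils labelled Ezh2-null. Mitf rose 5.96-fold in wild-type (log2 difference 2.58, SE 0.26, adjusted p = 7.51e-05) and 10.2-fold in Ezh2-null cells (3.35, SE 0.26, adjusted p = 2.66e-05). Between genotypes it differed by −0.10 in neutrophils (95% confidence interval −0.69 to 0.48, adjusted p = 0.899) and by −0.88 in undifferentiated cells (adjusted p = 0.150).

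Hdc, the histamine-forming enzyme, was high in every group. Undifferentiated arrays read 13.22 and 12.74 in wild type and 12.65 and 13.50 in Ezh2-null cells, and overlapped. Wild-type neutrophils read 13.60 and 11.90, the widest replicate gap among their 7 genes, and neutrophils labelled Ezh2-null 14.84 and 14.52. The latter were above all 6 other genotype arrays. Hdc was 3.81-fold higher with the Ezh2-null label in neutrophils (log2 difference 1.93, SE 0.48, adjusted p = 0.0297) and rose 3.04-fold as Ezh2-null cells differentiated (1.61, SE 0.48, adjusted p = 0.0397), while the wild-type change was −0.23 (adjusted p = 0.820). The genotype difference fell to 1.08 and lost its call without wild-type neutrophil array 2. It also lost the call without either array of the neutrophils labelled Ezh2-null and with fewer groups in the fit, and the rise on differentiation lost it in 7 of 11 alternatives.

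**Figure D2:**
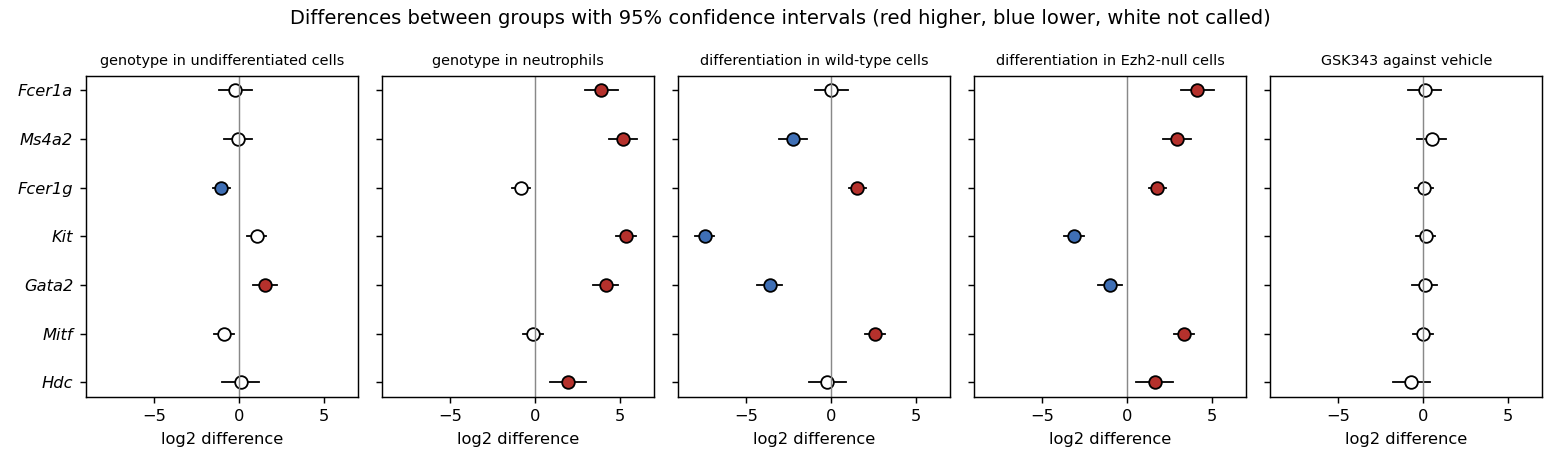
Log2 differences of the 7 measured genes in 5 comparisons, with 95% confidence intervals from the fit over 12 arrays; red is called higher, blue lower and white not called. Kit and Gata2 fall in both genotypes but by less in Ezh2-null cells, Ms4a2 changes direction, and in the drug panel every interval includes 0.

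Neutrophils labelled Ezh2-null were also set against wild-type progenitors, where 4 of the 7 genes were higher (Fcer1a, Ms4a2, Mitf and Hdc) and 1 lower (Kit), beside 11% of clusters higher and 9.97% lower (10.6% and 16.1% of named genes). The call of Hdc here was lost in 6 of 11 alternatives, and 3 genes were higher whichever of the 4 arrays was left out. Ezh2-null progenitors against wild-type neutrophils gave 3 higher (Ms4a2, Kit and Gata2) and 2 lower (Fcer1g and Mitf), beside 14.1% and 15.3% of clusters (22.4% and 13% of named genes). With these, the 4 genotype groups could be ordered by the mean of each gene. For Fcer1a the group of neutrophils labelled Ezh2-null stood apart and the other three were at background, so they have no order. For Ms4a2 that group was highest, the undifferentiated groups were not told apart, and wild-type neutrophils were lowest. For Kit the progenitor groups came first and were not told apart, followed by neutrophils labelled Ezh2-null and then wild-type neutrophils. For Gata2 the Ezh2-null progenitors came first, the middle places (neutrophils labelled Ezh2-null and wild-type progenitors) were not told apart, and wild-type neutrophils came last. Both neutrophil groups led for Mitf and for Fcer1g and were not told apart. For Fcer1g, wild-type progenitors were not told apart from neutrophils labelled Ezh2-null (0.73, adjusted p = 0.0518), while Ezh2-null progenitors were lower. For Hdc only the first place, held by neutrophils labelled Ezh2-null, stood apart from the next. The first places of Hdc and Gata2 and the last place of Fcer1g rested on calls lost in 7, 6 and 7 of 11 alternatives. In 3 of 11 the neutrophil groups were told apart for Fcer1g.

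Whether the genotype difference itself changed between stages was tested as an interaction, in which 4 of the 7 genes passed, all with a larger difference in neutrophils, beside 2.77% of clusters in that direction and 1.65% in the other (4.22% and 2.57% of named genes). The differences between the stage-specific effects were 5.20 for Ms4a2 (SE 0.52, adjusted p = 0.000796), 4.31 for Kit (SE 0.36, adjusted p = 0.000284), 4.11 for Fcer1a (SE 0.61, adjusted p = 0.00619) and 2.61 for Gata2 (SE 0.45, adjusted p = 0.0124). The value for Fcer1a rests on 3 groups at background, and its SE has the limit given under Fcer1a. The Gata2 interaction lost its call without wild-type undifferentiated array 1 (adjusted p = 0.0537). Hdc (1.84, adjusted p = 0.211), Mitf (0.77, adjusted p = 0.368) and Fcer1g (0.22, adjusted p = 0.867) did not pass, although Hdc passed without wild-type neutrophil array 1 and Mitf without array 2.

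Neutrophils made under GSK343 showed no called change in any of the 7 genes. Kit read 7.20 and 7.26 with the drug and 7.09 and 7.11 with vehicle, a difference of 0.13 (95% confidence interval −0.44 to 0.70). Gata2 was at background on all 4 arrays (4.52 to 4.67), as was Fcer1a. Ms4a2 read 5.63 and 5.69 with the drug and 5.14 and 5.22 with vehicle, the first vehicle value at background. These groups did not overlap, and the difference of 0.48 had an interval of −0.35 to 1.31. Hdc read 12.28 and 12.44 with the drug and 13.13 and 13.00 with vehicle, also without overlap (−0.71, interval −1.79 to 0.38, adjusted p = 0.959). Fcer1g (15.99 and 16.02 against 16.07 and 15.90) and Mitf (7.64 and 8.07 against 7.81 and 7.90) overlapped, with intervals of −0.50 to 0.54 and −0.58 to 0.59.

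The difference between the Ezh2-null label and the drug in neutrophils was tested directly, each effect taken within its own array set. It passed for 4 of the 7 genes, beside 1.97% of clusters with a higher and 1.33% with a lower effect of the label (3.03% and 2.01% of named genes). The values were 5.22 for Kit (SE 0.36, adjusted p = 0.000104), 4.66 for Ms4a2 (SE 0.52, adjusted p = 0.00152), 4.07 for Gata2 (SE 0.45, adjusted p = 0.00148) and 3.79 for Fcer1a (SE 0.61, adjusted p = 0.0107). Gata2 was at background in both drug groups, and Fcer1a in every group but neutrophils labelled Ezh2-null. These fitted sizes rest partly on background values, and the SE of Fcer1a has the limit given under that gene. The Fcer1a call was lost without GSK343 array 2 or without either vehicle array (adjusted p = 0.0511 to 0.0519). Hdc (2.64, adjusted p = 0.0823), Fcer1g (−0.83, adjusted p = 0.279) and Mitf (−0.10, adjusted p = 0.960) did not pass. The one cluster called with GSK343 was Cpa3, the mast cell carboxypeptidase and no member of the set, at 14.88 and 14.79 against 11.76 and 11.93 (log2 difference 2.99, SE 0.22, adjusted p = 0.0187). It was higher on both drug arrays, but Cpa3 lost its call without any 1 of the 4 arrays (adjusted p = 0.0703 to 0.427). It also lost it with the 4 drug arrays alone in the fit (adjusted p = 0.0667), where the 1 cluster called was Mmp8, lower with GSK343.

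The pathways around the 7 genes did not move as one in neutrophils. Their counts by genotype stand beside the 10.2% of named genes called higher and the 6.41% called lower. Of the IgE receptor signalling list, 18 of 20 genes were measured, and with the Ezh2-null label 4 were higher, 6 lower and 8 not called (median log2 difference −0.52 with dim genes at their bound). Fyn, a Src-family kinase of that pathway, read 5.07 and 5.29 in wild-type neutrophils, at background, and 7.29 and 8.63 in those labelled Ezh2-null, at least 5.54-fold higher (adjusted p = 0.0009). The adaptor Grap2 was at least 5.04-fold and the phospholipase Plcg1 2.19-fold higher. With the negative control limit, the bounds were 2.78-fold for Fyn and 2.53-fold for Grap2. The Ras activator Rasgrp4 was 6.74-fold lower (log2 difference −2.75), the exchange factor Vav1 3.31-fold lower and the calcium sensor Stim1 2.81-fold lower. The kinase Syk, which docks on the gamma chain, read 12.27 and 12.11 against 11.73 and 10.71 and did not pass (−0.97, adjusted p = 0.0908).

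Among 9 measured genes listed as gamma chain receptors or their relatives (such as Pirb), 2 were lower and none higher. These were Clec4e, by 4.10-fold, and Fcgr4, by 2.23-fold. Of 14 genes of Kit signalling, 6 were lower and none higher, including the ubiquitin ligase Cbl (−1.70, adjusted p = 0.00715) and the PI3-kinase subunits Pik3cg and Pik3cd (−1.44 and −1.17). The Kit ligand gene Kitl was at background on all 12 arrays. Of 8 measured genes of interleukin-33 signalling, 2 were lower, Irak3 (−1.64) and Irak2 (−1.23), and Il33 itself was at background on all 12 arrays. Il1rap, the co-receptor of the Il1rl1 product, read 7.04 and 6.96 in wild-type and 8.90 and 9.92 in Ezh2-null progenitors, 5.31-fold higher (log2 difference 2.41, adjusted p = 0.00172). In neutrophils it was 0.81 higher and not called (adjusted p = 0.115).

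Among 19 measured partners of GATA2 and MITF, 5 were higher and 4 lower with the Ezh2-null label in neutrophils. Zfpm1, the GATA cofactor FOG-1, read 6.34 and 6.19 in wild-type neutrophils and 11.34 and 11.80 in those labelled Ezh2-null, 39.6-fold higher (log2 difference 5.31, SE 0.16, adjusted p = 2.53e-07). Its wild-type neutrophil values were under the negative control medians of their arrays (6.37 and 6.60), so by that limit the fold would be a smaller bound. Tal1, which works in complexes with GATA factors, read 7.22 and 7.10 against 9.18 and 9.40, 4.39-fold higher (adjusted p = 0.000112). Gata1 left background in neutrophils labelled Ezh2-null alone, at 6.43 and 6.39, at least 1.89-fold above wild-type neutrophils, but the negative control limit left no bound above 1. The myeloid factor Cebpa was 2.56-fold lower, the MITF relative Tfe3 1.98-fold and Fli1 1.85-fold lower. None of the 19 was called with GSK343, and 5 were higher and none lower by the label than by the drug.

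Of 11 measured genes of histamine, serotonin and granule amine handling, 5 were higher and 1 lower with the Ezh2-null label in neutrophils. Slc18a2, the vesicular transporter that loads amines such as histamine into granules, read 11.77 and 11.27 in wild-type and 12.23 and 13.78 in Ezh2-null progenitors. It read 5.67 and 5.88 in wild-type neutrophils and 11.31 and 12.06 in those labelled Ezh2-null, which is 60.1-fold higher (log2 difference 5.91, SE 0.44, adjusted p = 5.31e-05). Slc18a2 fell 53.6-fold as wild-type cells differentiated, and neutrophils labelled Ezh2-null differed from wild-type progenitors by 0.17 (adjusted p = 0.866). Both wild-type neutrophil values of Slc18a2 were under the negative control medians of their arrays (6.37 and 6.60). By that limit the 60.1-fold and 53.6-fold differences would be smaller bounds. The serotonin transporter Slc6a4 was at least 3.70-fold and the histamine receptor gene Hrh4 at least 1.33-fold higher, and Hrh2 at least 2.41-fold lower. With the negative control limit these bounds were 1.86-fold for Slc6a4 and 1.39-fold for Hrh2, and Hrh4 was at background in both groups. The histamine-degrading enzyme Hnmt was at background on all 8 genotype arrays. Of 7 measured genes of lipid mediators, 1 was lower, Alox5, the leukotriene-forming lipoxygenase, by 5.86-fold, and a single call in 7 genes is no result about that list.

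**Figure D3:**
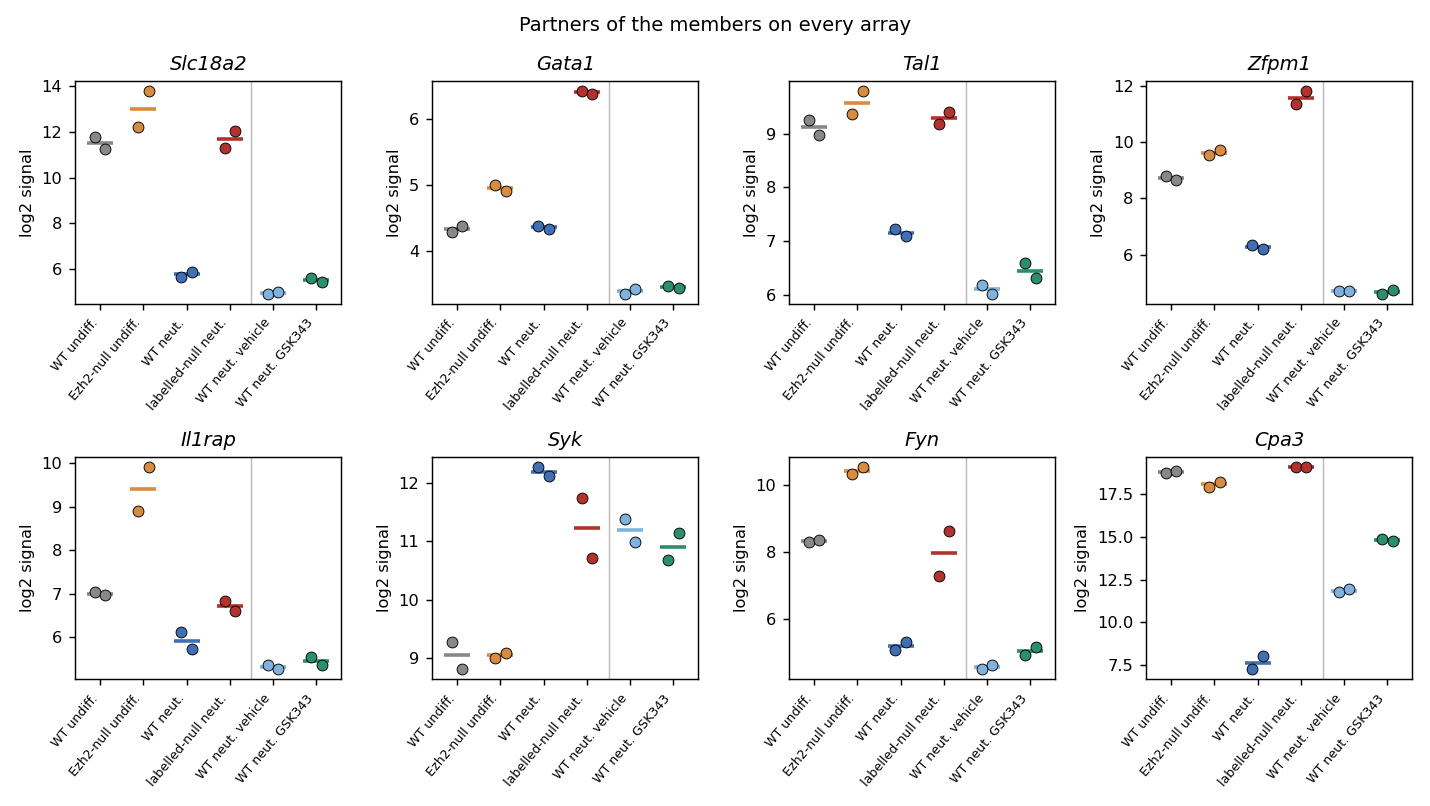
Log2 signal of 8 genes that act with the measured members, on each of the 12 arrays; points are arrays and bars are group means. Slc18a2, Gata1, Tal1 and Zfpm1 are higher on the 2 arrays of neutrophils labelled Ezh2-null than on those of wild-type neutrophils, and Cpa3 is also higher with GSK343 than with vehicle.

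Markers of several cell types moved beside the 5 genes that were higher in neutrophils labelled Ezh2-null. Of 15 mast cell markers, 8 were called higher and rose above background and none was lower, led by the tryptase Tpsb2 (at least 1987-fold, or 998-fold with the negative control limit) and by Cpa3 (2832-fold). The log2 of their summed signal was 14.79 to 14.80 in wild-type neutrophils and 19.38 to 19.46 with the label, and Tpsab1, Mcpt1, Mcpt9 and Mrgprb1 were called higher by the fit but were at background in both groups. Of 10 basophil markers 6 were higher and above background, among them Mcpt8 (at least 65.2-fold, or 32.8-fold with the negative control limit), and Itga2 was called within background, with sums of 12.49 to 13.42 against 13.57 to 14.80. Of 8 eosinophil markers 3 were higher and above background (10.40 to 10.52 against 10.55 to 10.99), with Epx and Il5ra at background in both groups, Il5ra called within it. Of 11 erythroid and megakaryocyte markers 10 were higher (9.77 to 12.14 against 17.54 to 17.78), led by Car2 (2058-fold). Of 10 progenitor markers 3 were higher (10.67 to 10.72 against 12.64 to 13.40). Of 14 neutrophil markers 6 were lower (20.96 to 21.52 against 20.30 to 20.80), and of 11 monocyte markers 6 were lower (17.97 to 18.30 against 15.75 to 16.05). Their part in the differences of the receptor and regulator genes was not tested. Slc18a2, Ctsg, Gata1 and Ccr3 each stand in more than 1 list. With the negative control limit, 7 mast cell, 4 basophil and 2 eosinophil markers were higher and 5 monocyte markers lower, and the other counts did not change.

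**Figure D4:**
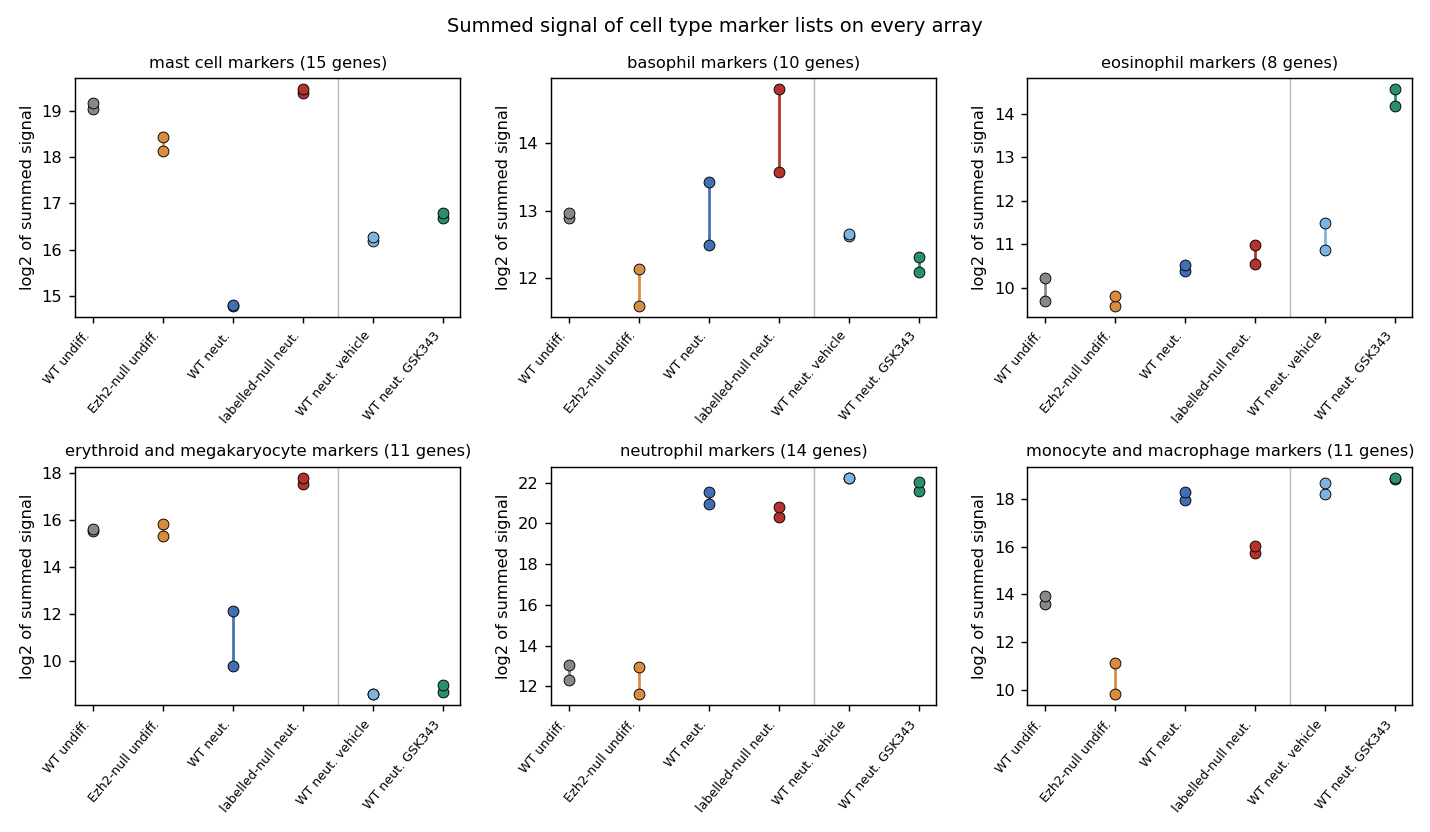
Log2 of the summed signal of 6 cell type marker lists on each of the 12 arrays, by group; points are arrays, joined by a line within a group. The mast cell and erythroid lists are higher on the arrays of neutrophils labelled Ezh2-null than on those of wild-type neutrophils, and the monocyte list is lower.

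Progenitors carried part of these lists already. The mast cell list summed to 19.04 to 19.17 in wild-type and 18.12 to 18.43 in Ezh2-null undifferentiated cells, with 4 of 15 genes above background on both arrays in each, Cpa3 among them at 18.75 and 18.86 in wild type. Such a sum follows mainly its brightest genes, here Cpa3 in wild type. Tpsb2 and Cma1 were at background in both progenitor groups. In the drug arrays the mast cell list summed to 16.19 to 16.27 with vehicle and 16.69 to 16.79 with GSK343, where 1 of 15, Cpa3, was called. The eosinophil list summed to 10.88 to 11.50 with vehicle and 14.18 to 14.56 with GSK343, with none of its 8 genes called, although Epx was called higher after median centring, with dim clusters left out and with a trended, robust prior. The sum of the progenitor list was also higher with GSK343 (11.41 to 11.48 against 12.57 to 12.77), as were those of the monocyte and erythroid lists. Of 11 erythroid genes, 9 were at background on all 4 drug arrays, so that sum rests partly on background signal. The sums of the neutrophil list (22.23 against 21.60 to 22.04) and the basophil list were lower. No gene of these other lists was called.

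The genes whose profile over the 8 genotype arrays was nearest to that of each member were sought among 5808 genes with a range of at least 2 log2 units. These points are 4 groups of 2 arrays that share one normalization, so Pearson r is given as a description. Gata2 was followed most closely by Slc18a2 (r = 0.9916) and Tal1 (r = 0.9906), both of which stand in the lists above, and then by Gm10923. Fcer1a was nearest to Adam33 (r = 0.9965), Tac2 and Kcnn3, and Ms4a2 to D730005E14Rik (r = 0.9932), Mical3 and Rgs12. Mitf was nearest to Apobec1 (r = 0.9932), Tnfrsf1b and Ms4a6d, and Fcer1g to Gm10212 (r = 0.9822), Tpm4 and Tapbp. Kit was nearest to Gm6807 (r = 0.9948), Gm12174 and Gm15772. Hdc had the loosest nearest gene, Ell2, at r = 0.9263, followed by Gm5843 and Car1.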

How the data were processed

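For each of 12 samples, 250 ng of total RNA went onto an Affymetrix Mouse Transcriptome Array 1.0 (series text). The authors deposited log2 signals per transcript cluster. The Affymetrix Expression Console and Transcriptome Analysis Console are named in the submitters' processing notes. Their versions, the summarisation, any background correction and the build of the genome were not stated in these sources. The 6732 control probe sets among 72688 entries were not tested. Of the other 65956 clusters, 30604 carried 1 gene symbol, 2146 several and 33206 none in the platform annotation. Entrez IDs matched 22818 of them to RefSeq and updated 827 symbols.

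All 12 arrays were fitted with limma 3.58.1 (R 4.3.3; 6 group means, 6 residual degrees of freedom, 9.06 in all with the prior). P-values were adjusted by Benjamini-Hochberg over all clusters, with a threshold of 0.05, and every adjusted p is limma's. The fit was tested on simulated data. Where the dimmer group was at background on both arrays, a fold is a bound ("at least"): the brighter mean was set against the dimmer mean after raising each dim array to its background. Fitted interactions are not so bounded. The number of arrays limits the precision. Between 28.8% and 43.4% of clusters were above background per array. All 7 measured members passed the filter on dim clusters, Fcer1a through the group where it was high. The members and lists were chosen with earlier results of these data known. Of each list, up to 3 called genes with the largest rise and up to 3 with the largest fall in a comparison were named, plus preset partners. Of 180 listed genes, 166 had a cluster.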

Additional observations from a re-analysis of the deposited data

Results flagged for a closer look

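The genotype difference was not the same at both stages for 4 members and, of 8 measured preset partners, for 3, by the interaction test in limma. The difference of effects (neutrophils minus undifferentiated cells) was 4.11 for Fcer1a (adjusted p = 0.00619), 5.20 for Ms4a2 (adjusted p = 0.000796), 4.31 for Kit (adjusted p = 0.000284) and 2.61 for Gata2 (adjusted p = 0.0124). It was 1.42 for Gata1 (adjusted p = 0.00101), 1.68 for Tal1 (adjusted p = 0.00696) and 4.43 for Slc18a2 (adjusted p = 0.00459). Gata1 and Fcer1a were at background outside neutrophils labelled Ezh2-null, so their values rest partly on differences within background. Over all named genes, 4.22% had a higher and 2.57% a lower value. Other genes of the lists passed too. Of 19 measured partners of GATA2 and MITF, 4 had a higher and 1 a lower value, with Zfpm1 at 4.42 (adjusted p = 2.07e-05). The counts were 1 and 2 of 18 for IgE receptor signalling, 0 and 1 of 14 for Kit signalling and 3 and 0 of 11 for amine handling. They were 1 and 0 of 9 for gamma chain receptors and relatives and 0 and 0 of 8 for interleukin-33 signalling. A single call in a list is no result about that list.

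The effect of the Ezh2-null label and that of GSK343 in neutrophils differed for the same 4 members and for 4 of the 8 measured preset partners. The label's effect minus the drug's was 3.79 for Fcer1a (adjusted p = 0.0107), 4.66 for Ms4a2 (adjusted p = 0.00152), 5.22 for Kit (adjusted p = 0.000104) and 4.07 for Gata2 (adjusted p = 0.00148). It was 1.98 for Gata1 (adjusted p = 0.000177), with that same limit, 1.79 for Tal1 (adjusted p = 0.00598) and 5.33 for Slc18a2 (adjusted p = 0.00190). It was −1.26 for Hnmt (adjusted p = 0.0309), which read 5.55 and 5.64 with GSK343 and was at background on the other 10 arrays. The limit given for Gata1 also holds for Fcer1a, and Gata2 was at background on the 4 drug arrays. Over all named genes, 3.03% had a higher and 2.01% a lower value. Of 19 partners of GATA2 and MITF, 5 were higher and 0 lower. The counts were 2 and 1 of 18 for IgE receptor signalling, 0 and 1 of 14 for Kit signalling and 2 and 1 of 11 for amine handling. They were 0 and 0 of 9 for gamma chain receptors and relatives and 0 and 0 of 8 for interleukin-33 signalling.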

How the results depend on the processing

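Over 728 recomputed differences of single members, 676 kept their side of the threshold, 41 lost the call and 11 gained one. In 0 of them did a called difference change direction. Differences that were not called could change sign, such as that of Mitf by genotype in neutrophils (−0.54 to 0.34). In undifferentiated cells, where 1 member was higher and 1 lower, 0 were higher and 0 lower with only the 8 genotype arrays or only the 4 arrays compared in the fit. Also there, 0 were lower with a replicate block and with a trended, robust prior, and leaving out 1 array gave 0 to 2 higher and 0 to 1 lower. In neutrophils, 1 member (Fcer1g) became lower by genotype after quantile normalization, median centring or removal of dim clusters. As Ezh2-null cells differentiated, 1 member was lower instead of 2 with a replicate block, with the trended prior and with fewer arrays in the fit, and 1 to 2 without 1 array. The cause was not tested. The replicate numbers showed no common pairing of the arrays, which does not exclude one. Correlations of deviations ran from −0.252 to 0.185 over 15 pairs of groups, with 5 over 0.1. The replicate block moved no other count of members. GSK343 called 0 members in every setting, and over all clusters it called 1 in the main setting, 2 with the replicate block, 3 with the trended prior, 8 with median centring, 2 with dim clusters left out, 1 (Mmp8, lower) with the 4 drug arrays alone and 0 to 2 without 1 array. Limits of background from the negative controls lowered the fold bounds. For Ms4a2 they went from 24.3 to 12.2 (genotype in neutrophils), 3.30 to 1.66 (wild-type differentiation) and 3.16 to 1.59 (Ezh2-null progenitors against wild-type neutrophils). For Fcer1a they went from 4.91 to 2.46 (genotype in neutrophils), 4.68 to 4.23 (Ezh2-null differentiation) and 5.08 to 3.36 (neutrophils labelled Ezh2-null against wild-type progenitors). No member had a second cluster to try.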
